A study of Glycine max with 24 samples.

Results

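In 3 plant pools of soybean (Glycine max) leaf, 1134 transcripts stood 2-fold or more below the mean of the other 2 pools of the same line. They belong to 1134 loci and were picked from 41743 listed transcripts, of which 20562 had a mean level of 5 CPM or more (CPM, the estimated count over the library's total, times 1000000). A member had a log2 difference of -1 or less in each of LD pool 2, LDX pool 3 and R-11272 pool 1, taken as the pool's CPM plus 0.5 over the mean of the line's other 2 pools plus 0.5. A pool's CPM was the mean of its MAMP and its control library. These differences chose the members, so they are given as a description with no test. The deposited identifiers carry no gene names and 0 of them matched the table of soybean gene names, so members are called by identifier and no function is given. For the same reason the leaf label could not be set against marker genes.

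The 24 libraries came from 12 pools of 4 lines, 3 pools a line. R-11272 and R-11268 are recombinant inbred lines, made nearly homozygous by repeated selfing of the progeny of a cross, here between the parental lines LD and LDX. Trifoliolate leaves of 3-week-old plants were detached and infiltrated with water, those of 5 plants were pooled, and slices were floated overnight. In each line, slices then spent 30 min in 5 ml of MAMP solution (1 µM flg22 and 50 µg crab shell chitin) or of mock solution (water with DMSO), in the dark, with 3 libraries for each. Pools were read from the replicate number, since slices of a pool were shared out between both dishes.

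Flg22 is part of the flagellin protein of bacteria, and chitin is a sugar polymer that stiffens the walls of fungi. Plants detect both with receptor kinases at the cell surface, and such microbe-associated molecular patterns (MAMPs) set off calcium influx, an oxidative burst, kinase cascades and, within minutes, changes in transcription. A pool of cut leaf also carries its own history of growth, wounding and floating, which MAMP and control slices of that pool share. The rule used differences between pools, not the MAMP response.

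The 3 outlying pools also differed from the other 9 in TMM factor and, in part, in depth and library composition. Their 6 libraries held 9780810 to 15775077 estimated counts, against 14568325 to 20827163 in the other 18. The 100 most abundant transcripts of a library took 14.7% to 27.1% of its counts in the 6 and 12.9% to 17.8% in the 18. The TMM factor, edgeR's scaling for composition, was 0.694 to 0.955 in the 6 libraries, below all of the other 18 (0.989 to 1.15). The median log2 difference of all 20562 transcripts was itself below 0, at -0.14 in LD pool 2, -0.50 in LDX pool 3 and -0.63 in R-11272 pool 1. With TMM scaling it was -0.01, -0.07 and -0.09 in the same order. TMM factors were thus low in all libraries where the members were low. Depth and the share of the 100 most abundant transcripts overlapped between the 6 and the 18 libraries. The part of depth and composition was not tested.

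The members together were a small share of the leaf transcripts in those pools. In LD pool 2 they made up 2.14% of the MAMP and 2.47% of the control library, against 6.66% and 7.19% of the MAMP and 7.85% and 8.72% of the control libraries of pools 1 and 3. In LDX pool 3 they made up 1.45% of the MAMP and 1.75% of the control library, against 8.70% and 7.51% of the MAMP and 9.42% and 8.05% of the control libraries of pools 1 and 2. In R-11272 pool 1 they made up 3.24% of the MAMP and 2.66% of the control library, against 10.1% and 12.5% of the MAMP and 9.17% and 11.6% of the control libraries of pools 2 and 3. The highest of the 6 low libraries lay below the lowest of the other 18, as the rule favours. Summed over the members, the outlying pool stood at 30.3% of the mean of the line's other pools in LD, 19.0% in LDX and 27.2% in R-11272. Without the 10 most abundant members, which held 27.3% of the members' counts, the shares were 32.8%, 20.1% and 27.8%. In bulk tissue, fewer cells of a type and less RNA per cell cannot be told apart.

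**Figure D1:**
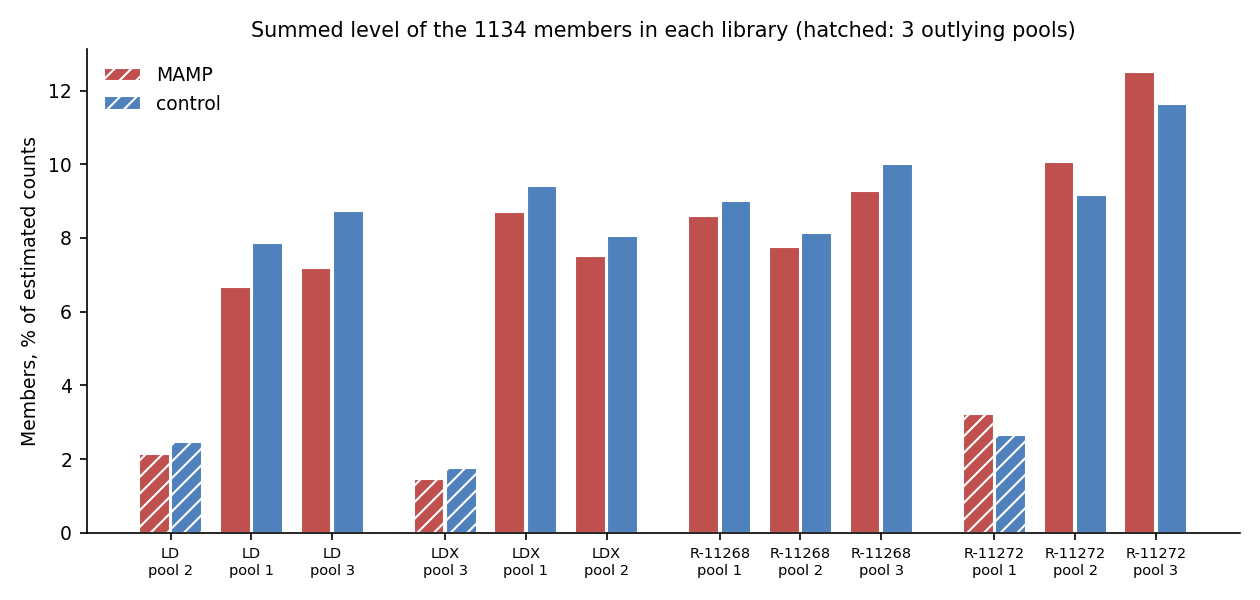
Share of each library's estimated counts held by the 1134 members (bars, percent, from 0), by line and pool, with the MAMP library left of the control library of each pool and the outlying pool of a line first. Hatched bars of LD pool 2, LDX pool 3 and R-11272 pool 1 lie between 1.45% and 3.24%, and the other 18 between 6.66% and 12.5%.

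The size of the difference varied between the 3 pools. The members' median log2 difference was -1.36 in LD pool 2 (quartiles -1.72 and -1.16), -2.19 in LDX pool 3 (-2.68 and -1.79) and -1.85 in R-11272 pool 1 (-2.22 and -1.46). Set against the median of all 20562 transcripts in the same pool, the members' median stood at -1.22, -1.69 and -1.22 on the log2 scale. A difference of -2 or less was reached by 158 members in LD pool 2, 718 in LDX pool 3 and 452 in R-11272 pool 1. Of the 1134 members, 810 had their lowest difference in LDX pool 3, 229 in R-11272 pool 1 and 95 in LD pool 2. Among all 20562 transcripts, -1 or less was met by 7.59% in LD pool 2, 32.8% in LDX pool 3 and 35.7% in R-11272 pool 1, so LD pool 2 was the pool that most narrowed the choice.

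**Figure D2:**
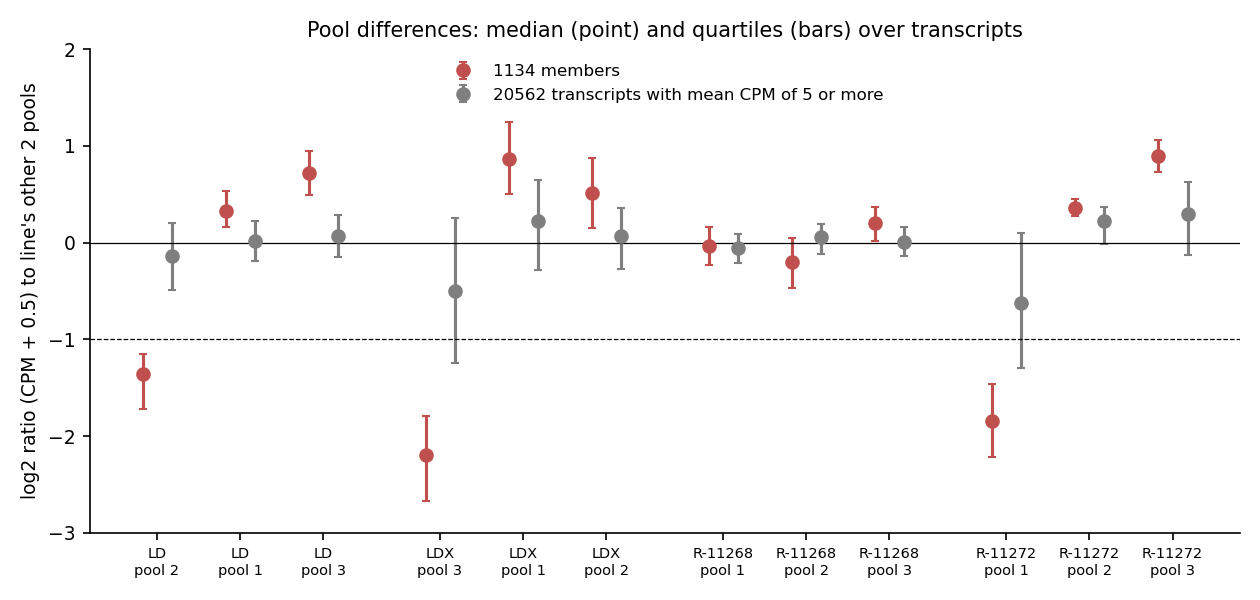
Log2 ratio of each pool's CPM (plus 0.5) to the mean of the line's other 2 pools, as median (points) and quartiles (bars) over the 1134 members (left of each pair) and over the 20562 transcripts with a mean CPM of 5 or more; the dashed line is the rule's threshold of -1. Members have medians of -1.36, -2.19 and -1.85 in the outlying pools and between -0.20 and 0.20 in the 3 pools of R-11268.

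LDX pool 3 and R-11272 pool 1, from different lines, ranked the members most alike. Over the 1134 members, which are not independent replicates and whose range the rule cut, the log2 differences of these pools correlated at 0.625 (Pearson) and 0.631 (Spearman). Those of LD pool 2 correlated with LDX pool 3 at 0.447 and 0.354 and with R-11272 pool 1 at 0.118 and 0.128. Over all 20562 transcripts the Pearson values were 0.918 for LDX pool 3 with R-11272 pool 1, 0.771 for LD pool 2 with LDX pool 3 and 0.638 for LD pool 2 with R-11272 pool 1. The pools compared share no library, but they share low composition factors.

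In 1127 of the 1134 members each outlying pool lay below both other pools of its line, and in 1022 the 3 outlying pools were the lowest of all 12. The rule favours both counts, so they are descriptions and no support for the choice. The other 7 of the 1134 met the rule because it averages the other 2 pools, and 1 of those was at or below the outlying pool in at least 1 line. Few members were near absence in the outlying pools: 9 to 81 members a library were under 1 CPM there, against 0 to 2 in the other 18 libraries. Members' median levels were 4.20 to 7.16 CPM in the 6 libraries and 15.7 to 28.7 CPM in the 18. The rule favours these contrasts too.

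The lowest mean difference over the 3 pools was that of Glyma06g45060.1, a transcript of chromosome 6. LD pool 2 held 11.2 CPM in its MAMP and 14.9 CPM in its control library, against 161 and 211 CPM in the MAMP and 214 and 285 CPM in the control libraries of pools 1 and 3. LDX pool 3 held 5.18 CPM (MAMP) and 5.68 CPM (control), against 318 and 100.2 CPM in the MAMP and 322 and 97.3 CPM in the control libraries of pools 1 and 2. R-11272 pool 1 held 47.0 CPM (MAMP) and 36.3 CPM (control), against 481 and 593 CPM in the MAMP and 410.4 and 518 CPM in the control libraries of pools 2 and 3. The low pool and the others of its line did not overlap in any of the 3 lines, as its choice by these same differences favours. Its log2 differences were -4.01 in LD pool 2, -5.15 in LDX pool 3 and -3.57 in R-11272 pool 1. In R-11268 it held 267, 226 and 452 CPM in the MAMP and 458, 389 and 780 CPM in the control libraries of pools 1, 2 and 3, with pool 3 the highest under both treatments. Glyma08g20230.1 on chromosome 8 followed, with log2 differences of -4.03, -5.63 and -1.56 in the same order. Its 3 pools were far apart in level: LDX pool 3 held 0.967 CPM (MAMP) and 1.33 CPM (control), LD pool 2 11.2 and 19.5 CPM, and R-11272 pool 1 182 and 188 CPM, which is above the level in both other LDX pools.

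The members' mean levels ran from 5.02 CPM, next to the rule's minimum, to 3442 CPM with a median of 18.1 CPM, against a median of 20.6 CPM for the 20562 transcripts from which they came. By level, members made up the largest share of the most abundant transcripts. Of 51 transcripts at 1000 CPM or more, 10 were members (19.6%), against 111 of 1733 (6.41%) at 100 to 1000 CPM, 259 of 5745 (4.51%) at 30 to 100 CPM, 438 of 8365 (5.24%) at 10 to 30 CPM and 316 of 4668 (6.77%) at 5 to 10 CPM. The members made up 5.52% of the 20562 overall. Among the 100 most abundant transcripts 16 were members.

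The most abundant member was Glyma15g03050.1 on chromosome 15. LD pool 2 held 737 CPM (MAMP) and 914 CPM (control), against 3338 and 3316 CPM in the MAMP and 4158 and 4202 CPM in the control libraries of pools 1 and 3. LDX pool 3 held 288 CPM (MAMP) and 351 CPM (control), against 3586 and 3110 CPM in the MAMP and 4035 and 3358 CPM in the control libraries of pools 1 and 2. R-11272 pool 1 held 904 CPM (MAMP) and 672 CPM (control), against 5799 and 7559 CPM in the MAMP and 4768 and 6364 CPM in the control libraries of pools 2 and 3. All 6 values of the outlying pools were thus below 1000 CPM and all 12 others of these lines at 3110 CPM or more. The rule favours such a gap. In R-11268 the range was narrow, from 3376 CPM (pool 1, MAMP) to 4956 CPM (pool 3, control). Glyma13g42330.1 on chromosome 13, next in abundance at a mean of 3141 CPM, had differences nearer to 0, of -1.67 in LD pool 2, -1.95 in LDX pool 3 and -1.32 in R-11272 pool 1.

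**Figure D3:**
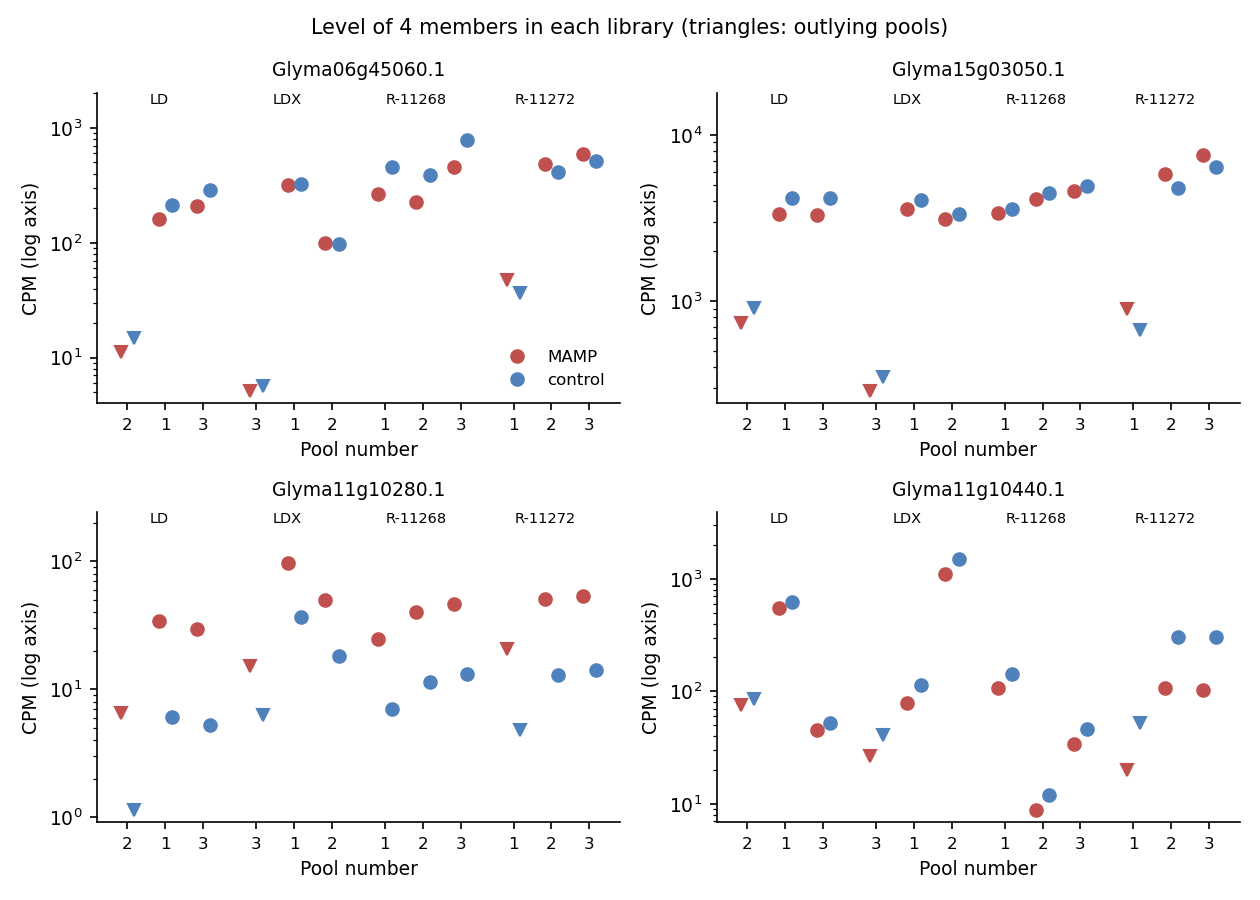
CPM (log axis) of 4 members in each library, by line and pool number with the outlying pool first (triangles), MAMP (red) left of control (blue). Glyma06g45060.1 and Glyma15g03050.1 are lowest in the 3 outlying pools, Glyma11g10280.1 is higher with MAMP than in the control in all 4 lines, by a ratio that the deposited values hold the same in the 3 pools of a line, and Glyma11g10440.1 varies in every line, with its lowest pool (10.4 CPM) in R-11268.

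At the edge of the rule, Glyma13g07130.1 (chromosome 13) was just inside, with -1.0003 in R-11272 pool 1 as the weakest of its 3 differences. Glyma06g41300.1 (chromosome 6) was next, with -1.0008 in LD pool 2. Just outside were Glyma06g11470.1 and Glyma08g46030.1, both at -0.9997 in LD pool 2. In LDX pool 3 these non-members stood far lower, at -2.93 for Glyma06g11470.1 and -3.74 for Glyma08g46030.1. The edge was crowded: 246 members lay within 0.1 of the threshold and 348 non-members within 0.1 on the other side. With TMM-scaled libraries the same rule kept 617 of the 1134 members and added none, so for the rest membership depends on scaling to the column total. On control columns alone 1180 transcripts met the rule (1125 of them members), and on MAMP columns alone 1073 (1065 members). That overlap was fixed by the deposited values, which hold the same MAMP to control ratio in all 3 pools of a line, so it is no check of 1 treatment by the other.

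The log2 thresholds of the rule did not use the line R-11268, whose 6 libraries entered it only through the minimum of 5 CPM for the mean over all 24. The members' share of all its libraries lay within the range of the other unselected pools. The members' summed share was 8.61%, 7.76% and 9.27% in the MAMP and 9.01%, 8.14% and 10.01% in the control libraries of pools 1, 2 and 3. Outside the outlying pools the members' median pool CPM was 18.2 in LD (2 pools), 23.5 in LDX (2 pools), 25.04 in R-11272 (2 pools) and 21.5 in R-11268 (3 pools). In the outlying pools the medians were 6.39 CPM in LD, 4.51 CPM in LDX and 6.62 CPM in R-11272. The rule raises the levels of the remaining pools in the 3 lines it used, so no test between lines was made.

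Members had a wider spread among the R-11268 pools than transcripts at large. Their log2 range over the 3 pools had a median of 0.46 (quartiles 0.29 and 0.65), against 0.30 (0.18 and 0.47) over all 20562 transcripts. A range of 1 or more was seen in 87 of 1134 members (7.67%) and in 967 of all transcripts (4.70%). Pool 2 was the lowest of the 3 for 648 members (57.1%), against 27.0% of all transcripts, and pool 3 was the lowest for 132 members (11.6%), against 30.5% of all. Pool 3 over pool 2 had a median log2 ratio of 0.27 in members (above 0 in 75.04%) and of -0.03 in all transcripts (above 0 in 45.1%). The members' median was 0.28 with TMM scaling. At 2-fold or more, 63 members were higher in pool 3 than in pool 2 and 4 were lower. In either direction these were 5.91% of members, against 3.40% of all transcripts. Each pool gives 1 value, so these are descriptions with no test.

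The pools that the rule only averaged can be compared in the same way. The pool with the higher summed level was set over the other, which fixes the members' side of 0, so the comparison is with all transcripts. Pool 3 over pool 2 of R-11272 had a median log2 ratio of 0.31 in members (quartiles 0.18 and 0.42), above 0 in 1056 of 1134 (93.1%), against 0.03 and 56.2% in all transcripts. Pool 3 over pool 1 of LD had 0.22 in members (above 0 in 74.3%), against 0.04 (56.3%) in all. Pool 1 over pool 2 of LDX had 0.20 in members (above 0 in 63.9%), against 0.10 (60.9%) in all. The LDX ratio was the most scattered, with 122 members at least 2-fold higher in pool 1 and 60 at least 2-fold lower. Together these were 16.0% of members, against 7.37% of all transcripts, the highest share of these pairs in both sets. In R-11272 1 member was 2-fold higher and 1 was 2-fold lower (0.176%, against 1.13% of all). Over the 1134 members, the mean of the 3 differences and the ratio of pool 3 to pool 2 of R-11272 correlated at -0.448 (Pearson) and -0.482 (Spearman), and both hold the same R-11272 pools. R-11268 shares no library with that mean, and the values there were -0.296 and -0.284 for pool 3 over pool 2, -0.205 and -0.162 for pool 1 over pool 2, and -0.115 and -0.128 for pool 3 over pool 1. They were -0.0155 and -0.0226 for pool 1 over pool 2 of LDX, and 0.00162 and -0.0876 for pool 3 over pool 1 of LD.

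**Figure D4:**
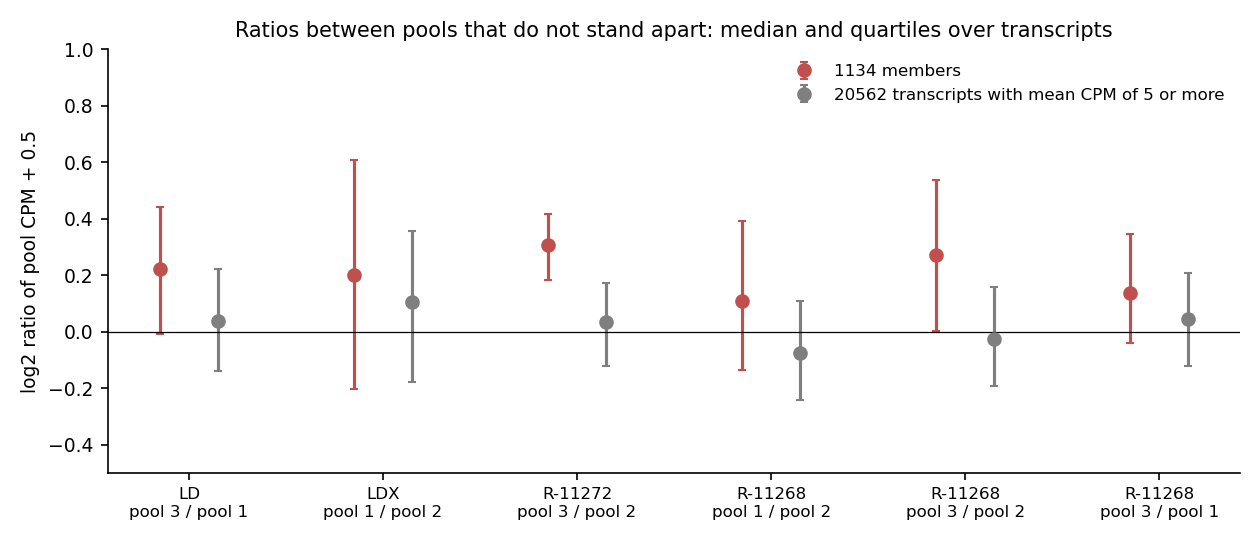
Log2 ratio of pool CPM between pools outside the 3 outlying ones, as median (points) and quartiles (bars) over the 1134 members (left of each pair) and the 20562 transcripts with a mean CPM of 5 or more. The member medians lie between 0.11 and 0.31, and those of all transcripts between -0.08 and 0.10.

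The widest spread over R-11268 pools was that of Glyma20g29770.1 on chromosome 20. Pool 3 held 22.7 CPM (MAMP) and 362 CPM (control), against 0.576 and 9.14 CPM in pool 1 and 0.941 and 15.1 CPM in pool 2. It was close to absent in LD pool 2, with 1.13 and 1.79 estimated counts in its MAMP and control libraries. Glyma11g10440.1 on chromosome 11 came next. Its pool CPM was 124, 10.4 and 40.2 in R-11268 pools 1, 2 and 3, and its highest value was 1303 CPM in LDX pool 2. In LD its pool 2 held 80.1 CPM, against 590 CPM in pool 1 and 49.0 CPM in pool 3. The next identifiers on the chromosome, Glyma11g10450.1 and Glyma11g10460.1, named after their values were seen, are members with the same highest pool (1009 and 508 CPM in LDX pool 2) and the same lowest pool (8.49 and 4.45 CPM in R-11268 pool 2).

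Members lay on all 20 chromosomes. Among transcripts at 5 CPM or more, the share that were members was highest on chromosome 6, at 90 of 1190 (7.56%), and lowest on chromosome 18, at 49 of 1166 (4.20%). It was 53 of 964 (5.50%) on chromosome 15, 55 of 940 (5.85%) on chromosome 19 and 43 of 890 (4.83%) on chromosome 20. On a finer scale members sat beside each other. Each member was paired with the locus before and after it in the order of locus numbers. In 1179 such pairs the neighbour had 5 CPM or more, and in 148 of them it was a member (12.6%). Of all loci at that level on chromosomes, 5.53% were members. Adjacent members were counted from both sides, so the 148 are pairs and not loci. There were 66 runs of 2 or more members next to each other, with 140 loci, and 7 runs of 3 or more. The longest, of 4 loci, lay on chromosome 20 from number 26500 to 26530. The sources used here do not say how reads matching several genes were counted, and neighbouring copies with shared reads cannot be told apart from neighbours with their own. Of the loci with 2 or more transcripts in the table (190), 3 held a member, and none held more than 1.

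The MAMP response was not part of the rule, and few members passed the test for it. Averaged over the 4 lines, 6 of the 1134 members rose and 1 fell (7 calls, 0.617%; edgeR quasi-likelihood test with Benjamini-Hochberg adjustment over 33214 transcripts, adjusted p under 0.05). Over all transcripts tested, 9.75% were called, 7.75% as higher and 2% as lower. All 1134 members passed the filter on low counts. The spread in this test contains the outlying pools that the rule selected on, which by construction widens it for the members. The test also counts the deviation of a pool in its MAMP and again in its control library. Without the 3 pools, 33 members rose and 12 fell (45 calls, 3.97%), against 17% of 33166 transcripts, 11.1% higher and 5.86% lower. The 7 calls were all among the 45. With the 4 lines as replicates in limma, 23 rose and 42 fell (65 calls, 5.73%), against 14.4% of all, 7.98% higher and 6.46% lower. Limma's values were log2 ratios of CPM plus 0.5, scaled to column totals. Over all tested transcripts they had a median of -0.08, with 32.9% above 0. In the edgeR fit of all 24 libraries these were -0.03 and 43.9%. The part of this shift in the direction of limma's calls was not tested. The 65 held all 7 and 26 of the 45. A fit with a replicate block for the pool gave 709 calls (62.5% of members). The share was 54.8% of all transcripts and 66.8% of those at 5 CPM or more. That fit is void, since the deposited values hold no scatter of the response between pools.

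Sizes of response do not rest on that spread and were also small. A fitted mean response of 2-fold or more was seen in 4 members upward and 2 downward (0.529%), against 5.91% of all 33214 transcripts and 5.73% of those at 5 CPM or more. In single lines the share was 1.15% of members in LD, against 8.17% of all tested. It was 0.617% against 7.53% in LDX, 0.882% against 6.88% in R-11268 and 1.68% against 9.53% in R-11272. The SD of the members' log2 responses was 0.32 for LD, 0.25 for LDX, 0.30 for R-11268 and 0.32 for R-11272, against 0.76, 0.71, 0.62 and 0.75 over all tested. All members are at 5 CPM or more. Over tested transcripts at that level the SDs were 0.70, 0.65, 0.56 and 0.67 in the same order. Their 2-fold shares were 6.74%, 6.10%, 5.76% and 7.84%.

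In R-11268 the test can be made with libraries that entered the rule only through the minimum of the mean CPM. Members still had a wider log2 range over its pools (median 0.46, against 0.30 at 5 CPM or more). The test's spread is that between pools, so the share called depends on it as well as on the size of response. These were not told apart. In its 6 libraries alone, 17 members rose and 7 fell (24 of 1134, 2.12%), against 8.19% of 31079 transcripts, 6.58% higher and 1.61% lower (edgeR). The fits of all 24 libraries have the outlying pools in their spread, which lowers the members' calls by construction. There edgeR called 0 members in R-11272 (background 4.3%), 0 in R-11268 (3.39%), 0 in LDX (3.78%) and 1 in LD (4.67%). At an unadjusted p under 0.05 it called 7 in R-11272 (10.9% of all), 7 in R-11268 (8.63%), 2 in LDX (9.99%) and 4 in LD (10.5%). DESeq2 called 3 in R-11272 (4.75% of all), 1 in R-11268 (3.92%), 0 in LDX (4.26%) and 2 in LD (5.06%). Without the 3 pools edgeR called 25 in R-11272 (2.2% of members, against 9.62% of all), 11 in R-11268 (0.97%, against 8.19%), 6 in LDX (0.529%, against 6.6%) and 12 in LD (1.06%, against 7.52%).

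The members leaned to different sides in the lines by small amounts. The median log2 response of the members less that of all tested transcripts was 0.14 for R-11272, 0.06 for R-11268, -0.07 for LD and -0.02 for LDX. With DESeq2 size factors these values were the same to 2 decimals. With column totals they were 0.11, 0.05, -0.08 and 0.00, so the LDX value changed its side of 0. In R-11272, 801 of 1134 members (70.6%) had a positive fitted response, against 47.4% of all, and in LD 411 (36.2%), against 47.6%. A response of 1 sign in all 4 lines was seen in 22.8% of members and 32.8% of all transcripts. No member was called for a difference of response between the lines (edgeR F test, 0 of 1134, background 0.148%). At an unadjusted p under 0.05 the count was also 0 (3.97% of all), and DESeq2 called 0 (0.209% of all). The spread in these fits holds the outlying pools that the rule selected on, so few calls among members follow by construction. The 0 calls thus do not show that the lines responded alike. Without the 3 pools edgeR again called 0 (0.479% of all), with 33 at an unadjusted p under 0.05 (9.62% of all).

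**Figure D5:**
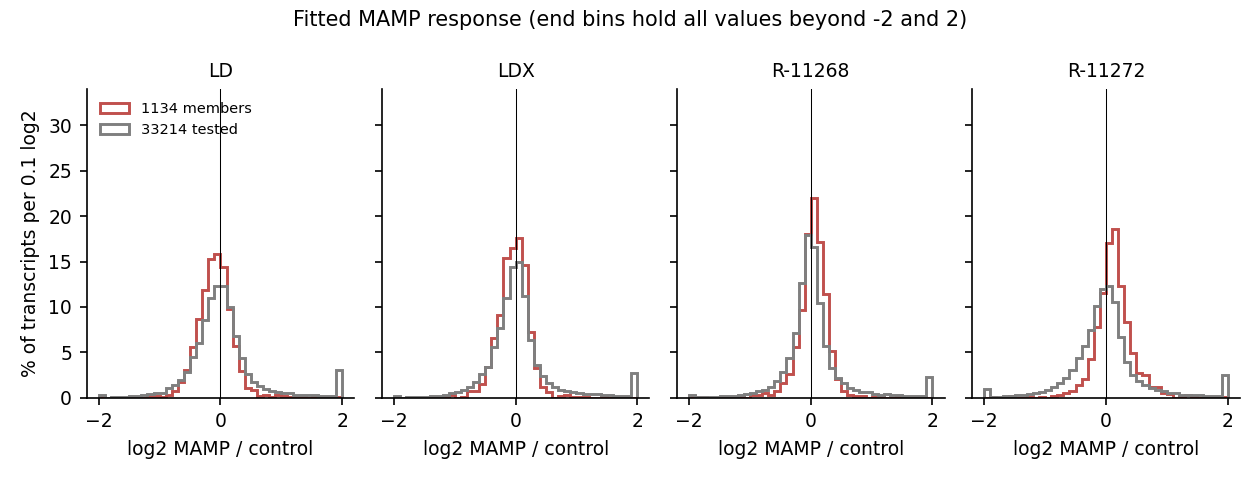
Distribution of fitted log2 MAMP responses in each line (percent of transcripts per bin of 0.1, values beyond -2 and 2 in the end bins) for the 1134 members (red) and all 33214 tested transcripts (grey). The members are narrower, with SDs of 0.25 to 0.32 against 0.62 to 0.76, and their R-11272 median is at 0.12. Tested transcripts at 5 CPM or more, not drawn, had SDs of 0.56 to 0.70.

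The strongest response among members was that of Glyma11g10280.1 on chromosome 11, which was higher with MAMP in all 4 lines. Within a line the deposited ratio is the same in all 3 pools, so the values of the outlying pools are no separate observation of the response. In LD its MAMP libraries held 34.1, 6.49 and 29.5 CPM in pools 1, 2 and 3, against 6.05, 1.14 and 5.31 CPM in the control libraries. In LDX they held 96.3, 49.8 and 15.1 CPM, against 36.8, 18.3 and 6.25 CPM. In R-11268 they held 24.8, 39.9 and 46.2 CPM, against 7.07, 11.4 and 13.2 CPM. In R-11272 they held 20.5, 50.4 and 53.4 CPM, against 4.79, 13.0 and 14.1 CPM. MAMP and control libraries did not overlap in LD, R-11268 and R-11272, and in LDX the MAMP library of the outlying pool 3 lay below both other control libraries. Its mean log2 response was 1.96 ± 0.32 (SE; edgeR adjusted p = 0.000226, positive in 4 of 4 lines). Over 30 alternatives its adjusted p (edgeR, DESeq2 or limma) was at most 0.000782. Of these, 24 left out 1 library but kept the other library of its pool, so they are no check by separate replicates.

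Glyma03g32270.1 on chromosome 3 was also higher with MAMP in all 4 lines. In LDX, MAMP libraries held 59.1, 30.5 and 6.84 CPM in pools 1, 2 and 3, against 28.1, 13.9 and 3.53 CPM in control libraries, and in R-11268 37.3, 50.5 and 48.2 CPM, against 14.4, 19.7 and 18.8 CPM. MAMP and control values overlapped in LDX through pool 3 and were apart in R-11268. Its mean log2 response was 1.46 ± 0.28 (SE; edgeR adjusted p = 0.00109, positive in 4 of 4 lines), and over 30 alternatives its adjusted p (edgeR, DESeq2 or limma) was at most 0.0032. The other 4 rising members, on chromosomes 6 (2 of them), 20 and 2, had mean log2 responses of 0.77 to 1.11, and 1 of them, Glyma06g41300.1, is a member just inside the rule's edge.

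The 1 member that fell was Glyma12g33420.1 on chromosome 12. In R-11268 its MAMP libraries held 8.07, 8.16 and 6.38 CPM, against 15.8, 16.1 and 12.6 CPM in the control libraries, and in R-11272 2.90, 8.12 and 8.30 CPM, against 4.73, 14.6 and 15.3 CPM. MAMP and control libraries did not overlap in R-11268. They overlapped in R-11272, where the outlying pool 1 was the lowest under both treatments. Its mean log2 response was -0.66 ± 0.20 (SE; edgeR adjusted p = 0.0378, negative in 4 of 4 lines). That call was lost in 16 of 30 alternatives, 15 of which left out 1 library, with adjusted p (edgeR, DESeq2 or limma) from 0.000178 to 0.0883. Fits that left out 1 library kept the other library of its pool, so they are no check by separate replicates.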

How the data were processed

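Leaf RNA of 24 libraries was sequenced after TruSeq preparation, per the labels' protocols. The authors deposited estimated counts per transcript. Per the submitters' processing notes, the tools were Cufflinks 1.1.0, TopHat 1.4.1 and Bowtie 0.12.7. Which step gave the estimates, and on which genome build, is not stated in the sources at hand. Column names ending in C were read as control and those ending in P, the only other treatment, as MAMP. The columns of R-11268 and R-11272 carry another prefix in the table and were assigned to these lines by the number in their names alone. Within a line, the members' ratio of MAMP to control was the same in all 3 replicates (SD of the median-centred log2 ratio at most 1.46e-09, where all values exceeded 0.1), so the deposited values have the form of fitted values, not independent measurements. P-values therefore measure only the spread between these pools that the fitted values keep, and the MAMP response has no replicate error of its own. Replicate numbers were taken to pair MAMP and control slices of a pool, since the labels describe 1 pool shared between 2 dishes.

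Members were chosen on CPM from column totals. Estimated counts were rounded to whole numbers and tested over all transcripts in R 4.3.3 with edgeR 4.0.16: filterByExpr (minimum count 10, total 15), TMM, 8 group means, 16 residual degrees of freedom, quasi-likelihood test, Benjamini-Hochberg threshold 0.05. For members, the MAMP and control libraries of a pool carry the same deviation, so these degrees of freedom count it more than once. The edgeR p-values and SEs treat such libraries as separate. DESeq2 1.42.0 and limma 3.58.1 were alternatives. The edgeR step was tested on simulated data with independent libraries and no pool deviations. That test does not bear on the deviation shared by the libraries of a pool. Named transcripts were up to 2 in each direction by lowest mean difference, level, MAMP response, nearness to the threshold and R-11268 spread. Gene lists and promoter motifs could not be used without gene names. The members and lists were chosen with earlier results of these data known.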

Additional observations from a re-analysis of the deposited data

How the results depend on the processing

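Of 1134 members, the count called for the mean MAMP response was 7 and stayed at 6 or 7 with DESeq2 size factors, without a filter on low transcripts, at a mean of at least 100 estimated counts and in DESeq2. It was 45 without the 3 outlying pools and 65 with the 4 lines as replicates. With 1 library left out it ranged from 6 to 8. The other library of the same pool stayed in each such fit, so these fits are no check by separate replicates. Single-line counts without the 3 pools were 25 for R-11272, 11 for R-11268, 6 for LDX and 12 for LD. On a line's own 6 libraries they were 0 in LD, against 1 in the fit of all libraries, and 24 in R-11268, against 0; LDX and R-11272 remained at 0. DESeq2 called 3 in R-11272, 1 in R-11268 and 2 in LD. With 1 library left out, LD gave 0 to 1 calls (0 without any 1 of the control libraries or MAMP replicate 1 or 3 of LD), LDX 0 to 0, R-11268 0 to 1 (1 without its MAMP replicate 3) and R-11272 0 to 2 (2 without either library of LDX replicate 3, 1 without R-11272 MAMP replicate 1). The difference between lines gave 0 calls in every alternative but the replicate block. That block, void for fitted values, gave 709 calls for the mean response (62.5% of members, against 66.8% of transcripts at 5 CPM or more). It gave 680 in R-11272 (60.0%, against 58.7%), 557 in R-11268 (49.1%, against 44.4%), 558 in LDX (49.2%, against 51.5%) and 572 in LD (50.4%, against 57.1%). For the difference between lines it gave 863 (76.1%, against 69.2%). The causes of these changes were not tested beyond the smaller spread that the removed pools or the block leave by construction. Glyma11g10280.1 and Glyma03g32270.1 kept their calls in the 30 alternatives other than the block, at mean log2 responses of 1.80 to 2.12 and 1.28 to 1.64. The rule chose 617 transcripts with TMM-scaled libraries, 336 at a threshold of -1.5, 4182 at -0.5, and 778 to 1442 under the other settings. In an outlying library, 9 to 81 members were under 1 CPM. The 81 were in the MAMP library of LDX replicate 3, which held 15714779 estimated counts. The library with the fewest counts, the control of LD replicate 2 (9780810), had 16. The part of depth was not tested.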
